A study of Mus musculus with 28 samples.

Results

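Hepatocyte-type cells made from mouse embryonic fibroblasts (MEF_ciHep, 3 libraries) were compared with primary hepatocytes from adult mouse liver (pHep, 2 libraries), 5 of the 28 libraries in the series. The members were taken from the sample titles: MEF_ciHeps 1 to 3 on the one side and pHeps 1 and 2 on the other. The series, whose title speaks of chemical reprogramming of fibroblasts to the endoderm lineage, measured RNA from fibroblasts, from progenitor cells called ciEPC, from the ciHep made of them, from stem cells and their derivatives, and from primary hepatocytes. The MEF_ciHep libraries came from ciEPCs at passage 3 to 10, which were themselves derived from fibroblasts (MEF) of E13.5 (embryonic day) mouse embryos from a cross between males carrying an Oct4-GFP transgene (CBA/CaJ X C57BL/6J) and 129Sv/Jae females. The pHep libraries came from adult Oct4-GFP mice (CBA/CaJ X C57BL/6J) at passage 0. The labels of all 5 libraries name the Oct4-GFP transgenic allele, but source tissue, age, strain and time in culture differ between the groups and cannot be told apart in any result below. The labels do not say whether libraries of a group came from separate cultures or animals, so p-values measure the spread between libraries only. That spread was estimated over all 9 groups of the fit, not from these 5 libraries alone. In bulk RNA, fewer cells of a type and less RNA per cell cannot be told apart.

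Hepatocytes are the main parenchymal cells of the liver. They secrete most plasma proteins, including albumin, clotting factors, complement and apolipoproteins, and they carry out gluconeogenesis, urea synthesis, bile formation and detoxification. A network of transcription factors around HNF4A, the FOXA proteins and C/EBP alpha holds this program in place. During fetal life the same lineage makes alpha-fetoprotein and other oncofetal products that are switched off after birth, and the liver bud shares its origin in foregut endoderm with the stomach and the upper intestine.

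The neighbouring genes Alb (albumin, chromosome 5, 90460897-90476602, plus strand) and Afp (alpha-fetoprotein, chromosome 5, 90490737-90508907, plus strand), on build GRCm38, moved in opposite directions between the groups. Gkn1 (chromosome 6, 87345650-87350942, minus strand) and Gkn2 (chromosome 6, 87373357-87379497, plus strand), which encode secreted gastrokines of the stomach surface, also lie side by side and rose together. Their upstream sequences are shown for that reason, from RefSeq (GRCm38.p6), 5′ to 3′ on the strand of the gene and ending before the RefSeq start of transcription for Alb and Afp and before the GENCODE start for Gkn1 and Gkn2. The gene coordinates above are those of GENCODE, whose start lies 27 bases downstream of the RefSeq start for Alb and 23 for Afp, and 27 bases upstream of it for Gkn1 and 8 for Gkn2. Distances below are counted from the RefSeq start. Capitals mark GTTAAT on either strand in Alb and Afp, letters that both share, and GATAAG on either strand (CTTATC on the reverse strand) in Gkn1 and Gkn2, letters read by GATA factors.
Alb, chr5:90460620-90460869: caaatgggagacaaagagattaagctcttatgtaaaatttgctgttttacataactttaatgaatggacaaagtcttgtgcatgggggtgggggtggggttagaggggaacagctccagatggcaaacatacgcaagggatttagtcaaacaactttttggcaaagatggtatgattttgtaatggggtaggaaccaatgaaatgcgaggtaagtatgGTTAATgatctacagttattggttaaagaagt
Afp, chr5:90490464-90490713: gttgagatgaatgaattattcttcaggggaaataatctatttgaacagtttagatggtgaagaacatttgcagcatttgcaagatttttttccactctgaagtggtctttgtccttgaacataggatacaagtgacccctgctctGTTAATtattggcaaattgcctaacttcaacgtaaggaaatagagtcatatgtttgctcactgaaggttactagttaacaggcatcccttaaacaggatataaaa
Gkn1, chr6:87350943-87351165: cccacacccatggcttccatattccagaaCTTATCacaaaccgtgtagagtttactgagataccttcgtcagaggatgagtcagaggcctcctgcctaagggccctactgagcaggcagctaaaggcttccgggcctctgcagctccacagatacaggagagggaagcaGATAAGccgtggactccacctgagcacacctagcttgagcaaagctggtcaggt
Gkn2, chr6:87373115-87373356: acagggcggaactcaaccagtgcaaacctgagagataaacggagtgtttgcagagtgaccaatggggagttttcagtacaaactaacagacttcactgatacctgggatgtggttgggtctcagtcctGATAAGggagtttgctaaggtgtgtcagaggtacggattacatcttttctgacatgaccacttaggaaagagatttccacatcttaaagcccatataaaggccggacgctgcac
GTTAAT began 32 bases before the RefSeq start of Alb and 105 bases before that of Afp. GATAAG lay 81 and, as CTTATC, 221 bases before the RefSeq start of Gkn1, and 122 bases before that of Gkn2. Over all 32851 promoters in the RefSeq table, 6.43% held GTTAAT and 6.55% held GATAAG in the 250 bases before the start. GTTAAT was found in 7 of 25 promoters of plasma carrier proteins and 2 of 11 of gastric genes. GATAAG was found in 4 of 11 promoters of gastric genes, 4 of 25 of plasma carrier proteins and 4 of 20 of coagulation factors, so each motif also occurred outside the list it is shown for. These matches describe letters, not binding.

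Of 16056 genes tested, 2488 (15.5%) were higher and 1798 (11.2%) were lower in MEF_ciHep than in pHep, at an adjusted p under 0.05 (edgeR's quasi-likelihood test) and at least a 2-fold difference. "Rose", "higher", "fell" and "lower" below refer to these calls. By the fit, 1292 of the higher and 651 of the lower genes differed by at least 8-fold. In the pHep libraries 872 of the higher genes had a mean under 1 CPM (counts scaled to a common library size), and 404 of the lower genes had a mean under 1 CPM in MEF_ciHep. The median log2 fold change over all genes tested was 0.01. Library totals were 2420756, 6133147 and 3084682 expected counts (estimated reads per gene, summed) in MEF_ciHep and 2745369 and 2010637 in pHep. Among 7594 genes of at least 32 CPM, 57 to 83 differed by 4-fold or more between any 2 MEF_ciHep libraries, 243 between the pHep libraries, and 1193 to 1310 between a MEF_ciHep and a pHep library.

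The pHep libraries stood further apart from each other than the MEF_ciHep libraries did, and several results below rest on one of them. Xist, the RNA that silences an X chromosome in female cells, was at 2.65 CPM in pHep 1 and 1643 CPM in pHep 2, while the Y-linked gene Ddx3y was at 68.1 and 0 CPM. The 3 MEF_ciHep libraries held both, with Xist at 1854, 1443 and 1173 CPM and Ddx3y at 21.3, 22.8 and 15.4 CPM. These genes were chosen after their values were seen. Defining hepatocyte markers were abundant in both pHep libraries: by TPM, a transcript share that corrects for gene length, Alb ranked 4 and 3, and Trf ranked 3 and 2. Other markers of mature hepatocytes were scarce in them. Cyp2e1, a pericentral detoxifying enzyme, had 24.3 and 2.17 CPM in pHep and 0, 1.38 and 1.1 CPM in MEF_ciHep, Otc of the urea cycle had 2.65 and 2.71 against 1.45, 0.691 and 0.366 CPM, and Cyp7a1, the rate-limiting enzyme of bile acid synthesis, had 0 CPM in both pHep libraries. These 3 genes were too low to be tested, and what sets their low level in pHep was not tested.

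Among hepatocyte transcription factors, 21 of 23 were tested, 0 were higher and 10 were lower, where 11.2% of all genes tested were lower. The median log2 fold change of the list was -1.39. In this and other lists, a count of 4 or fewer in a direction could change by over 1.5 times when a library was left out. Hnf4a, the nuclear receptor at the centre of the network, was at 182, 187 and 129.6 CPM in MEF_ciHep and at 659.5 and 490.2 CPM in pHep. Every MEF_ciHep library lay below both pHep libraries, and the log2 difference was -1.76 ± 0.34 (SE, adjusted p = 0.00125). The forkhead pioneer factors were divided. Foxa1 fell 2.87-fold, whereas Foxa2 (142, 91.7 and 89.7 against 59.7 and 59.6 CPM, adjusted p = 0.154) and Foxa3 (47, 33.3 and 24.2 against 39.8 and 43.4 CPM, adjusted p = 0.65) were not called. Cebpa, which encodes C/EBP alpha, was not called either, and the pHep libraries disagreed on its level (24.3 and 99.2 CPM, against 25.5 to 36.3 CPM in MEF_ciHep). Without pHep 1 it was lower (adjusted p = 0.00523), and without pHep 2 its log2 difference was 0.27 (adjusted p = 0.711).

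The deepest falls in this list were those of Mlxipl, Nr1h4 and Onecut2. Mlxipl, the carbohydrate-response factor ChREBP, was at 0, 1.55 and 2.2 CPM against 119 and 78.6 CPM (log2 difference -6.11 ± 0.51, adjusted p = 5.17e-07). Nr1h4, the bile acid receptor FXR, was at 1.45, 1.21 and 0.732 against 47.8 and 41.2 CPM (-5.24 ± 0.72, adjusted p = 9.88e-05). Onecut2, an onecut factor of the liver, fell 27.4-fold (adjusted p = 1.46e-06). Ppara, the fatty acid receptor that drives fat oxidation, fell 8.71-fold, the liver receptor homolog Nr5a2 fell 8.12-fold, and the oxysterol receptor Nr1h3 fell 5.26-fold. For each of these 6 genes, all MEF_ciHep libraries were below both pHep libraries, as they were for 25.2% of all genes tested. Prox1 fell 3.54-fold, but without pHep 2 its log2 difference was -1.17 and the call was lost (adjusted p = 0.165), as it was with the replicate number as a block (-1.52, adjusted p = 0.0661).

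Secreted plasma proteins were lower nearly throughout. Of 21 plasma carrier proteins tested, 0 were higher and 19 were lower (median log2 fold change -3.20). Alb was at 1241, 1972 and 2739.6 CPM in MEF_ciHep against 20088 and 12384 CPM in pHep, a difference of -3.01 ± 0.42 on the log2 scale (8.04-fold, adjusted p = 1.43e-04). Albumin RNA was thus abundant in both groups and ranked 31 to 89 by TPM in the MEF_ciHep libraries. Gc, the vitamin D-binding protein, was at 39.2, 71.5 and 62.3 against 1228 and 2167 CPM (-4.83 ± 0.31, adjusted p = 2.23e-07), and Ahsg, fetuin-A, was at 47.4, 46.1 and 63 against 2055 and 1699 CPM (-5.15 ± 0.46, adjusted p = 5.20e-06). Hemopexin (Hpx) fell 11.5-fold, the copper carrier ceruloplasmin (Cp) 25.7-fold, and the inter-alpha-trypsin inhibitor chain Itih2 13.3-fold. Ttr, transthyretin, fell 2.81-fold, but without pHep 1 its log2 difference was -0.38 (adjusted p = 0.415), and in a fit of these 2 groups alone it was not called (adjusted p = 0.0645).

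Transferrin was among the 2 carriers tested that were not called. Even so, every MEF_ciHep library lay below both pHep libraries, as for 25.2% of all genes tested. Trf was at 13617, 3079.5 and 11489 CPM in MEF_ciHep against 17301 and 21236 CPM in pHep, and the log2 difference of -1.02 ± 0.60 did not pass the test (adjusted p = 0.198). Apoa1, the main apolipoprotein of high-density lipoprotein, was at 13436, 4781 and 10737 against 5074 and 775 CPM. The ranges of the 2 groups overlapped and the log2 difference of 1.74 ± 0.84 was not called (adjusted p = 0.124), although it was called without pHep 1 (3.67, adjusted p = 0.0151), with no filter on low counts (1.75, adjusted p = 0.019) and by limma on log2(TPM + 1) (2.26, adjusted p = 0.036). By TPM, Apoa1 ranked 2, 6 and 1 in the MEF_ciHep libraries and 10 and 63 in pHep.

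Coagulation factors and complement fell along with the carriers. Of 23 coagulation genes tested, 0 were higher and 19 were lower (median -2.75). F12, the factor XII of the contact pathway, was at 0.968, 0.345 and 0.732 against 119 and 228 CPM (log2 difference -8.12 ± 0.50, adjusted p = 3.03e-07). F11 fell 75.4-fold and plasminogen (Plg) 13.3-fold. Of 19 complement genes, 16 were lower and 0 were higher (median -3.14). Mbl2, the mannose-binding lectin, had 0, 0.173 and 0 CPM against 440.1 and 359 CPM, a ratio of 4277 with a 95% counting interval of 767 to 169037, since MEF_ciHep held very few reads. C4b fell 81.8-fold (7.26 to 14.7 against 718 and 1351 CPM), and the terminal component Hc fell 15.1-fold. Leaving out each library in turn gave 16 to 19 lower coagulation genes and 13 to 16 lower complement genes.

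Apolipoproteins and genes of lipoprotein assembly were mostly lower, with 12 of 18 tested, Apoa1 included, lower and 2 higher (median -2.87). Apob, the structural protein of very low-density lipoprotein, was at 487, 207 and 291 against 2639.5 and 2904 CPM (-3.06 ± 0.45, adjusted p = 9.08e-05). Apoc4 fell 65.4-fold, Apoe 5.79-fold, and Lcat, which esterifies cholesterol in plasma, 59.3-fold. Of 10 serpina antiproteases, 9 were lower and 0 were higher (median -3.65), and 5 were lower without pHep 1. Of 21 major urinary proteins 9 were tested, and 8 of these were lower (median -7.68 with members at 0 counts placed at their bound). In the list, 3 members reached a mean of 1 CPM in MEF_ciHep and 15 in pHep. Members thus passed the count filter mainly through pHep, which largely set the direction of this count in advance. Mup3 was at 0, 0.345 and 0 against 1083 and 226 CPM. Mup7 was at 0 CPM in every MEF_ciHep library against 3495 and 4.34 CPM in pHep, and the list had 5 lower members of 7 tested without pHep 1 and 14 of 16 tested without pHep 2. Mup and Serpina1 genes are near-identical copies among which reads can be split, so single members are uncertain.

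**Figure D1:**
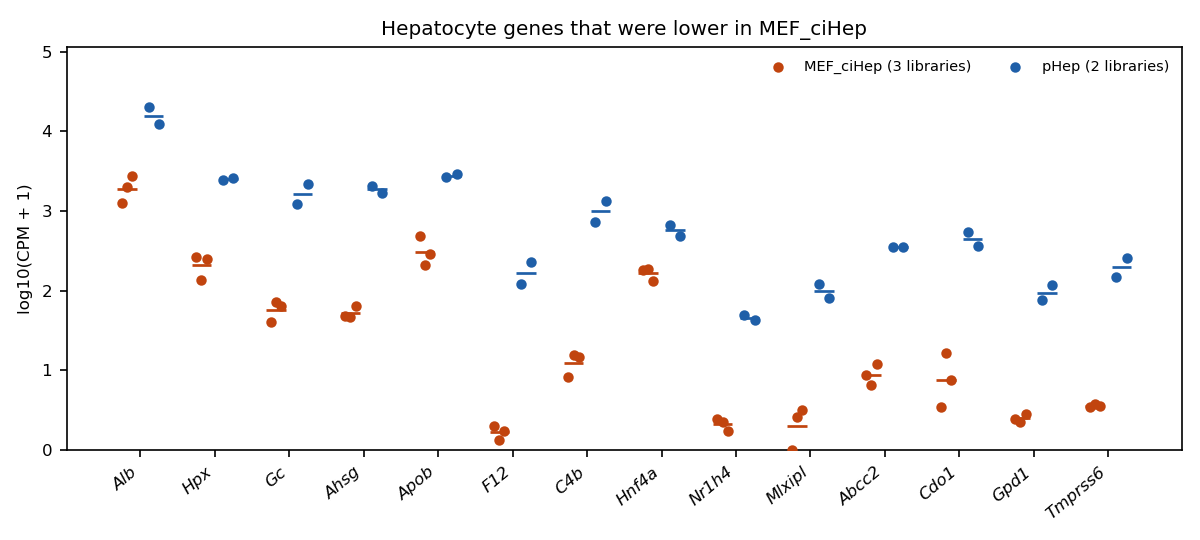
Levels of 14 hepatocyte genes in each library, as log10(CPM + 1); dots are libraries and bars are group means. The genes drawn were picked among those called lower. In each, all 3 MEF_ciHep libraries lie below both pHep libraries, as they did for 25.2% of all genes tested. The gap between the bars is widest for F12.

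Acute phase genes, the inflammatory part of hepatocyte secretion, were lower for 13 of 19 members and higher for 2 (median -4.36). Lcn2, a siderophore-binding protein, was at 46.5, 95.6 and 55.3 against 999 and 2777 CPM (-4.79 ± 0.53, adjusted p = 2.45e-05). Orm1 fell 20.6-fold, Fgl1 32.8-fold, and the chemokines Cxcl1 and Ccl2 fell 81.9-fold and 46.6-fold. Socs3, an inhibitor of cytokine signalling, rose 10.7-fold. Genes of iron and copper handling were lower for 12 of 22 members and higher for 4, or 2 without either of the pHep libraries alone. Tmprss6, the protease that restrains hepcidin, was at 2.42, 2.76 and 2.56 against 146 and 258 CPM (-6.22 ± 0.41, adjusted p = 1.51e-07), and the iron sensor Tfr2 fell 27.4-fold. The copper exporter Atp7a rose 7.23-fold.

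Solute and drug transporters of hepatocytes fell for 18 of 24 members tested, with 0 higher (median -2.59). Abcc2, the canalicular exporter of conjugated bilirubin, was at 7.75, 5.52 and 11 against 347 and 350.3 CPM (-5.45 ± 0.48, adjusted p = 1.54e-06). Abcb4, which moves phosphatidylcholine into bile, fell 37.5-fold, and the xenobiotic exporter Abcg2 fell 5.13-fold. Abcb11, the bile salt export pump, fell 7.62-fold, but its level in pHep was uneven (75.2 and 11.9 CPM) and without pHep 1 the call was lost (adjusted p = 0.578), as it was without MEF_ciHep 2 or MEF_ciHep 3 and under DESeq2. Of 11 genes of bile acid synthesis tested, 4 were lower and 0 higher (median -0.82), among them Cyp7b1 (0 CPM in every MEF_ciHep library against 6.19 and 4.88 CPM, at least 19.5-fold lower) and the bile acid-activating transporter Slc27a5 (25.5-fold).

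Of 39 cytochrome P450 genes tested, 16 were lower and 6 higher (median -1.48, and -1.33 without pHep 2). Over all genes tested 11.2% were lower and 15.5% higher, so the count of higher members was near the general share. Cyp4v3, a fatty acid hydroxylase, fell 14-fold and Cyp2c70, which makes muricholic acids, fell 9.32-fold. Cyp2s1, an extrahepatic P450 of epithelia, went the other way, with 860.2, 262 and 770.5 CPM against 2.21 and 2.17 CPM (8.17 ± 0.71, adjusted p = 4.68e-07). Cyp2c55 had 16, 81.7 and 15.7 CPM in MEF_ciHep and 0 CPM in both pHep libraries, at least 51.7-fold higher. Phase II enzymes gave the same counts, with 16 of 39 lower and 6 higher (median -1.06), the higher count again near the general share. Glyat, which conjugates glycine, was at 0, 0 and 0.366 against 37.6 and 64.5 CPM. Mgst1 fell 11.8-fold, while Gsto1 rose 9.73-fold.

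Amino acid catabolism was lower in 32 of 50 members tested and higher in 0 (median -2.17). Cdo1, which starts the breakdown of cysteine, was at 2.42, 15.4 and 6.59 against 551 and 365 CPM (-5.58 ± 0.46, adjusted p = 2.82e-07). Gpt, alanine aminotransferase, fell 12.4-fold, and Cth and Cbs of transsulfuration fell 10.8-fold and 19.2-fold. Tat, the tyrosine aminotransferase, was lower by edgeR (adjusted p = 0.00109) but not by DESeq2 (adjusted p = 0.374). Leaving out each library in turn gave 24 to 34 lower members.

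Of 11 genes of the urea cycle and ammonia handling, 7 were lower and 1 was higher (median -1.36). Glud1, glutamate dehydrogenase, was at 306, 264 and 269.5 against 975 and 792 CPM (-1.63 ± 0.16, adjusted p = 1.44e-06), and Asl fell 2.4-fold. Cps1, the first enzyme of the cycle, was at 48.4, 48.9 and 77.6 against 123 and 314 CPM, and its log2 difference of -1.88 ± 0.42 (adjusted p = 0.00471) was not called without pHep 2 (adjusted p = 0.106). Arg1 showed the same dependence, with 11.9 and 121 CPM in pHep and an adjusted p of 0.497 without pHep 2. The gene that rose was Glul, glutamine synthetase of pericentral hepatocytes, at 817, 625 and 575 against 95.5 and 158 CPM (2.44 ± 0.26, adjusted p = 3.13e-06). Of 18 periportal genes 11 were lower and 1 higher. Of 15 pericentral genes 5 were lower and 2 higher, and 8 were lower without pHep 2.

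Glucose metabolism differed in which isoform was present. Of 20 genes of gluconeogenesis and glycogen, 10 were lower and 1 higher (median -1.24). Gpd1, glycerol-3-phosphate dehydrogenase, was at 1.45, 1.21 and 1.83 against 74.3 and 116 CPM (-5.98 ± 0.54, adjusted p = 7.19e-07). Gckr, the regulator of glucokinase, was at 0, 0.691 and 0 against 31.4 and 78.1 CPM, and Fbp1 of gluconeogenesis fell 56.6-fold. The glucose transporters Slc2a1 and Slc2a3, used widely outside adult hepatocytes, rose. Slc2a3 was at 718, 547 and 1624 against 2.65 and 1.08 CPM (8.96 ± 0.76, adjusted p = 3.90e-07), and Slc2a1 rose 4.92-fold. Hk1 and Hk2, the general hexokinases, rose 4.2-fold and 4.36-fold.

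Pairs of a liver form and a general form of the same activity were set side by side as the share of the liver form in the summed TPM of the pair, without a test of the pair. Liver glycogen phosphorylase made up 28.8%, 23.3% and 49.3% of Pygl plus Pygb in MEF_ciHep and 92.5% and 86% in pHep, where Pygl was lower and Pygb higher in MEF_ciHep. Liver glycogen synthase made up 0.832%, 0% and 0.362% of Gys2 plus Gys1 against 18.9% and 12.9%, although the fall of Gys2 was not called by DESeq2 (adjusted p = 0.441). Slc2a2 made up 0.252%, 0.365% and 0.253% of the glucose transporter pair Slc2a2 plus Slc2a1 against 1.24% and 30.4%. For this pair the pHep libraries differed widely, and the fall of Slc2a2 was not called without pHep 2 (adjusted p = 0.464). Alb made up 15.1%, 55.1% and 27.8% of the TPM of Alb plus Afp in MEF_ciHep and 97.9% and 96.2% in pHep.

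**Figure D2:**
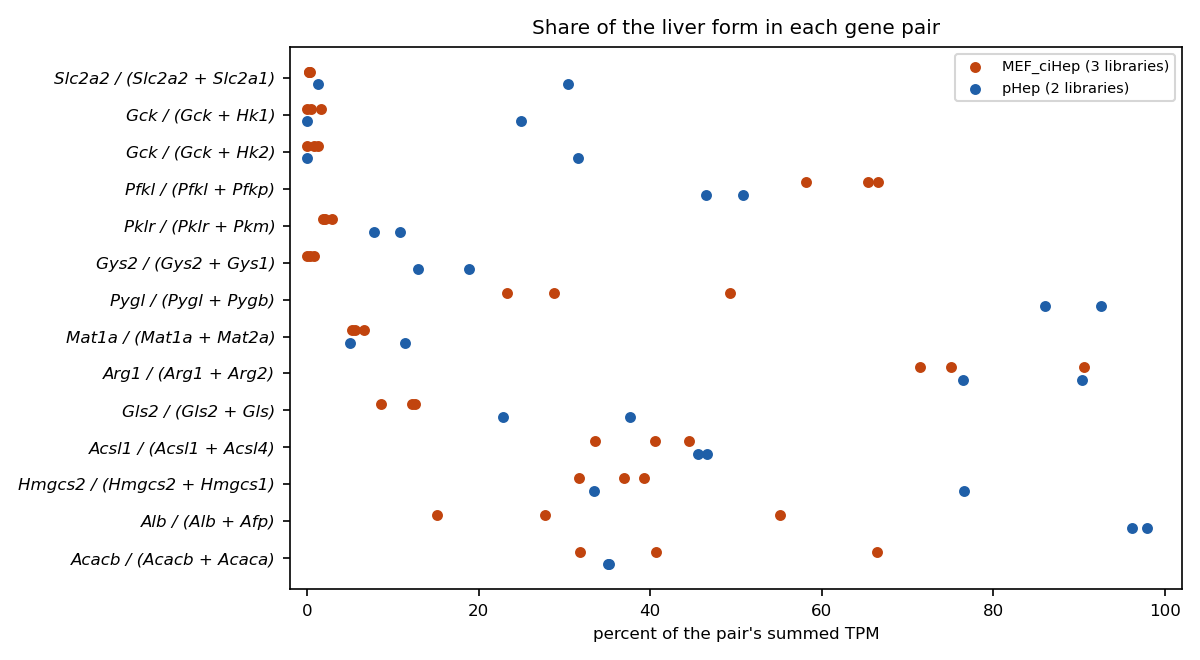
Share of the liver form in the summed TPM of 14 gene pairs, in percent, with 1 dot per library. The MEF_ciHep libraries lie left of both pHep libraries for glycogen synthase (Gys2, at most 0.832%), glycogen phosphorylase (Pygl, at most 49.3%) and Alb against Afp (at most 55.1%), while the arginase pair overlaps.

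The medians of lists of lipid and energy metabolism lay near that of all genes. Of 23 genes of cholesterol synthesis, 8 were higher and 1 lower (median 0.53), but without pHep 2 only 4 were higher. Srebf2, the sterol-sensing transcription factor, was at 616, 433 and 480.1 against 173 and 133 CPM (1.76 ± 0.21, adjusted p = 1.08e-05), and its targets Hmgcs1 and Insig1 rose 3.25-fold and 4.69-fold. Scd2, the fatty acid desaturase of nonhepatic and fetal tissues, rose 26.7-fold (3203, 2219 and 2611 against 74.3 and 131 CPM). Plin2, which coats lipid droplets, fell 6.42-fold. Of 35 genes of fatty acid oxidation and ketogenesis, 5 were lower and 2 higher, and without pHep 2 the balance turned to 2 lower and 7 higher. Of 51 subunits of oxidative phosphorylation, 0 were lower and 1, Ndufa6, was higher (2.11-fold), with a median of -0.24.

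**Figure D3:**
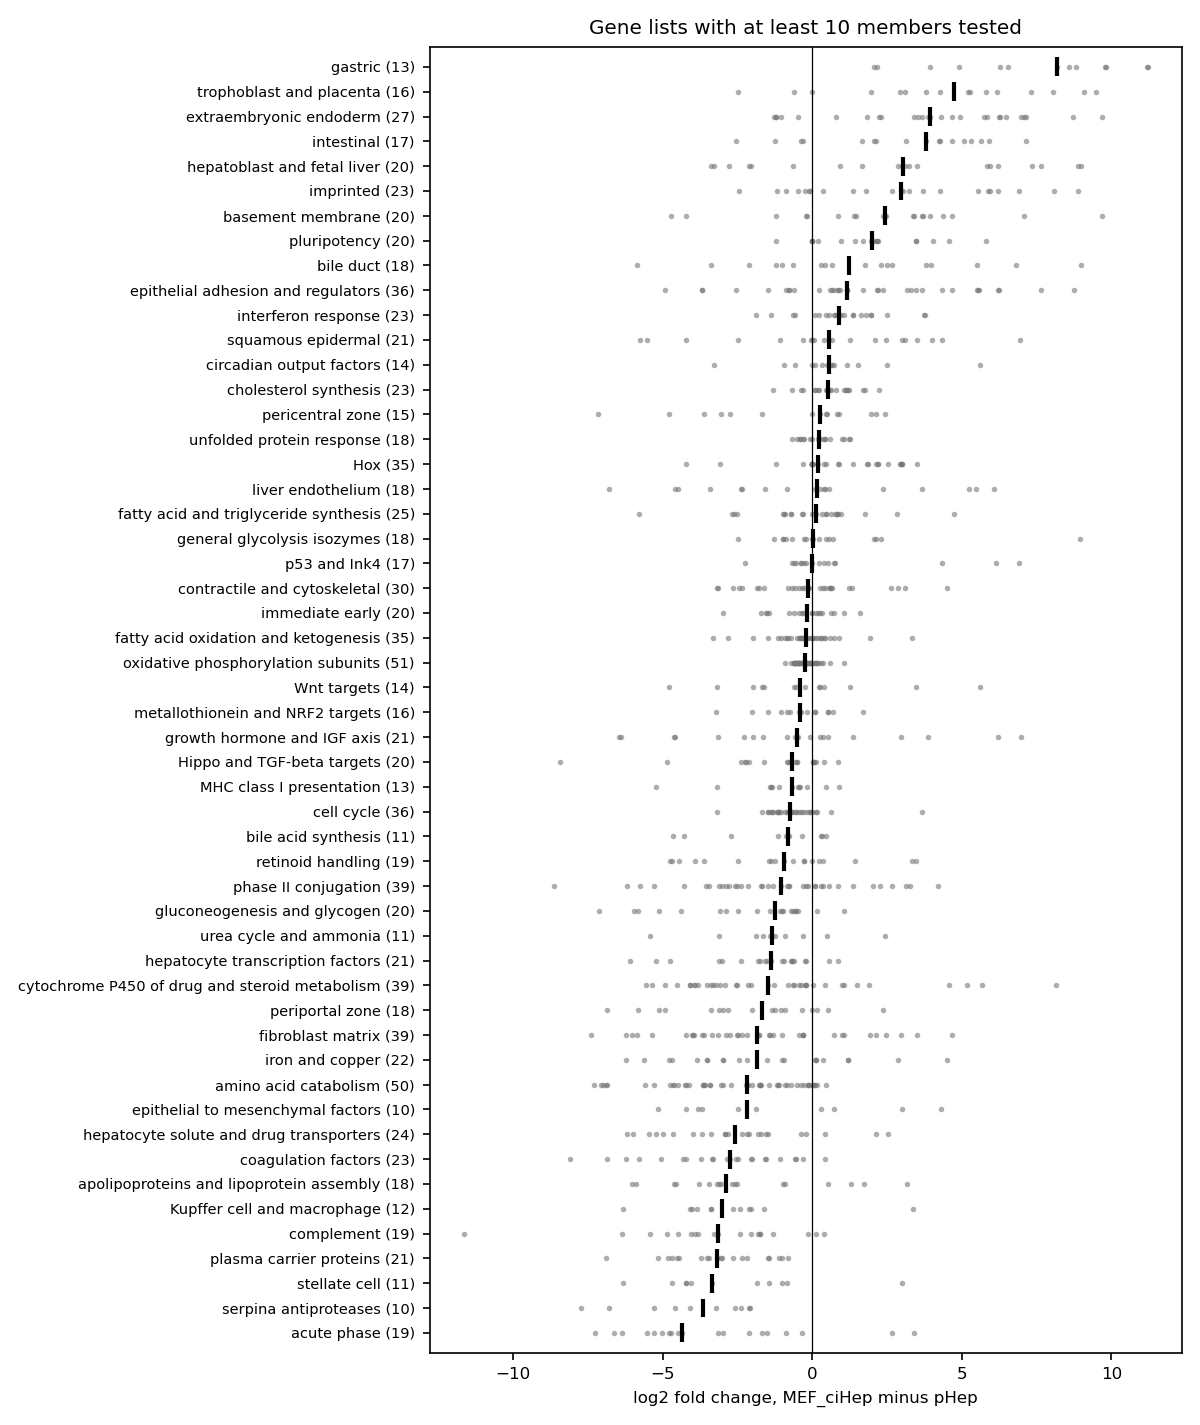
Log2 fold change (MEF_ciHep minus pHep) of each tested member of the gene lists with at least 10 members tested; dots are genes, thick bars are list medians, and genes with 0 counts in a group are placed at the bound that 3 counts over that group gives. Lists of secreted and metabolic hepatocyte genes lie on the left (acute phase median -4.36, plasma carriers -3.20), oxidative phosphorylation lies near 0, and gastric genes lie farthest right (8.19).

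Most genes of a fetal liver list rose against pHep. Of 20 genes of hepatoblasts and fetal liver, 13 were higher and 4 lower, where 15.5% of all genes tested were higher (median 3.04 with bounds, that is, with genes at 0 counts in a group placed at the value 3 counts would give). Afp was at 7020.2, 1559 and 7021 CPM in MEF_ciHep against 429 and 491 CPM in pHep (3.52 ± 0.63, adjusted p = 7.48e-04). H19, the imprinted long noncoding RNA of fetal tissues, was at 11796, 5137 and 16342 against 24.8 and 22.8 CPM (8.88 ± 1.07, adjusted p = 1.13e-05). Igf2, the fetal growth factor next to it, was at 2293, 1000.4 and 2526 against 9.29 and 45 CPM (6.20 ± 0.68, adjusted p = 4.02e-06). In all 3 genes MEF_ciHep 2 was the lowest of its group and still above both pHep libraries. All MEF_ciHep libraries lay above both pHep libraries for 27.4% of all genes tested. The RNA-binding protein Igf2bp3 rose 8.5-fold, and Sox9, of progenitor and biliary cells, fell 10.5-fold. The levels of this list overlapped with those in the starting fibroblasts: its summed TPM was 14292 to 26039 in MEF, 3298 to 7850.3 over 9 ciEPC libraries, 9179 to 24769.9 in MEF_ciHep, and 4486 and 3718 in pHep. H19 was at 7656 ± 4296 CPM and Igf2 at 6767 ± 2647 CPM in MEF (SD, n = 3), whereas Afp was at 0.0734 ± 0.127 CPM there.

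Imprinted genes as a list were higher for 14 of 23 members and lower for 1 (median 2.98). The summed TPM of the list averaged 17782 in the starting MEF and was 1991 to 9309 over 9 ciEPC libraries. It was 13686, 6764 and 17703 in MEF_ciHep, and 828 and 1275 in pHep. Peg10, a retrotransposon-derived gene needed in placenta, was at 3002, 1118 and 2273 against 6.64 and 9.22 CPM (8.10 ± 0.65, adjusted p = 2.55e-07). Cdkn1c, an inhibitor of the cell cycle, rose 119-fold and Plagl1 58.5-fold. In the growth hormone and IGF axis, the adult hormone gene Igf1 moved opposite to Igf2, at 0, 3.11 and 0.366 against 209 and 82.4 CPM (-6.41 ± 0.74, adjusted p = 7.73e-06). The growth factor receptors divided as well, with Igf1r higher 14.6-fold and Egfr lower 8.95-fold.

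Epithelial genes were more often higher than lower in MEF_ciHep. Of 36 genes of epithelial adhesion and its regulators, 20 were higher, 5 lower and 11 not called (median 1.17). The summed TPM of the list overlapped between the groups, at 13611, 13031 and 16731 in MEF_ciHep against 16441 and 12454 in pHep. Epcam, an adhesion molecule of progenitors and ducts, was at 490.4, 294 and 528 against 1.77 and 2.71 CPM (7.64 ± 0.63, adjusted p = 2.96e-07). Spint1, a membrane protease inhibitor, was at 461, 478 and 458 against 4.42 and 8.68 CPM (6.21 ± 0.34, adjusted p = 3.27e-08). Cdh1, E-cadherin, rose 5.13-fold and the claudin Cldn7 45.1-fold, while Cdh2, the N-cadherin that hepatocytes also carry, fell 12.9-fold. Krt8 and Krt18, the keratins of hepatocytes, were not called (adjusted p = 0.206 and 0.185).

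Bile duct genes went both ways, with 9 of 18 higher and 5 lower (median 1.22), and 3 lower without pHep 2, MEF_ciHep 1 or MEF_ciHep 3. Krt7 was at 759.5, 653 and 1048 against 69 and 51 CPM (3.79 ± 0.51, adjusted p = 3.19e-05), Krt19 rose 5.7-fold and Muc1 113-fold. Tm4sf4, a membrane protein of liver and ducts, was at 21.8, 13.8 and 19 against 1420.4 and 661 CPM (-5.85 ± 0.39, adjusted p = 9.96e-07).

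Genes of extraembryonic endoderm, the tissue of the yolk sac, rose for 21 of 27 members and fell for 3 (median 3.94). Lama1, a laminin chain of the basement membrane that this tissue lays down, was at 3237, 1551 and 1882 against 2.65 and 2.71 CPM (9.70 ± 0.78, adjusted p = 2.45e-07). The endoderm factor Sox17 was at 141, 141 and 59 against 1.77 and 1.08 CPM (6.29 ± 0.80, adjusted p = 3.59e-05), Gata4 rose 14.7-fold and Gata6 3.52-fold. Cubn, an endocytic receptor of yolk sac and kidney, rose 76.3-fold. Of 20 basement membrane genes 12 were higher and 3 lower (median 2.44), with Lamb1 higher 136-fold, Lamc1 12.8-fold and Col4a2 15.3-fold. Leaving out each library in turn gave 20 or 21 higher endoderm genes. The ciEPC libraries held more of the endoderm list than MEF_ciHep: its summed TPM was 27362 to 42871 over 9 ciEPC libraries, 12573, 8012 and 7990.5 in MEF_ciHep, and 1157 and 1403 in pHep. In the starting MEF it was 5162, 5911 and 5856.

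Stomach genes had the highest median of the lists with at least 10 members tested. Of 13 gastric genes tested, 12 were higher and 0 lower (median 8.19 with bounds). In the list, 12 members reached a mean of 1 CPM in MEF_ciHep and 6 in pHep, so the lack of lower members was partly set in advance. Gkn2 was at 12899, 4000.0 and 5083 CPM in MEF_ciHep against 2.65 and 3.8 CPM in pHep (11.18 ± 1.05, adjusted p = 7.04e-06), and Gkn1 was at 11839.8, 2880.1 and 4401 against 2.65 and 2.71 CPM (11.22 ± 1.07, adjusted p = 1.46e-05). By mean TPM, Gkn2 was the most abundant gene of the MEF_ciHep libraries at 16941, ahead of Apoa1 at 16835. Cldn18, the claudin of stomach and lung, was at 1132, 1174 and 648 against 3.54 and 3.25 CPM (8.19 ± 0.49, adjusted p = 5.16e-07). Muc5ac, the surface mucin, was at 495, 397 and 498 against 0 and 1.08 CPM, and it was called by edgeR (adjusted p = 1.86e-06) but not by DESeq2 (adjusted p = 0.0574).

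Tff1, the trefoil peptide of the stomach surface, was the gastric gene best detected in pHep, at 498 and 20.1 CPM against 5754, 3427 and 2483 CPM (3.93 ± 1.09, adjusted p = 0.0151). In a fit of these 2 groups alone its adjusted p was 0.0587, and without pHep 1 its log2 difference was 7.64. The summed TPM of the 4 gastric markers was 67453, 28939.8 and 28532 in MEF_ciHep and 1703 and 96.8 in pHep, and Tff2 was at 0 in both pHep libraries. Anxa10 and Vsig1 of the stomach epithelium had 93 to 311 and 80.6 to 167 CPM in MEF_ciHep and under 1 CPM in pHep.

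Intestinal genes rose for 11 of 17 members and fell for 1 (median 3.82 with bounds). Vil1, the villin of the brush border, was at 163, 144 and 105 against 4.87 and 3.25 CPM (5.08 ± 0.74, adjusted p = 8.14e-05), and the lectin Lgals4 was at 299, 421 and 293 against 2.21 and 9.76 CPM (5.91 ± 0.55, adjusted p = 9.73e-07). Some of the largest rises over all genes were of secreted proteins of gut and pancreas. Dmbt1, a scavenger protein of mucosal surfaces, was at 2299, 1054 and 1627 against 0 CPM in both pHep libraries, at least 2271-fold higher. Zg16, a lectin of goblet cells and zymogen granules, had 2691, 518 and 1387 against 0 and 0.542 CPM. Amy2a3, a pancreatic amylase with near-identical copies, was at 159, 70.1 and 120.5 against 0 CPM.

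Placental genes were present in all 3 MEF_ciHep libraries, at levels that differed between them. Of 16 trophoblast and placenta genes tested, 12 were higher and 0 lower (median 4.74 with bounds). In the list, 15 members reached a mean of 1 CPM in MEF_ciHep and 6 in pHep, so the lack of lower members was partly set in advance. The list includes Krt8, also a keratin of hepatocytes. Its summed TPM overlapped, at 4961, 6568 and 9363 in MEF_ciHep against 7291 and 5259.8 in pHep. By the fit its median was 6.95, with 7.75 without pHep 1 and 6.75 without pHep 2. Prl3d1, a placental lactogen of trophoblast giant cells, was at 109.9, 406 and 1064 CPM against 0 CPM in pHep (at least 721-fold, adjusted p = 5.35e-04), and it was not called by DESeq2 (adjusted p = 0.0921). Tfap2c, a trophoblast transcription factor, was at 35.8, 74.1 and 241 against 0 CPM (at least 160.2-fold, adjusted p = 4.07e-05), and Hand1, of giant cells, was at 25.7, 88.2 and 319 against 0 and 0.542 CPM. In each of these genes MEF_ciHep 1 was lowest and MEF_ciHep 3 highest. The 6 called genes with the widest range among MEF_ciHep libraries included Ceacam15 (11.1, 67.8 and 206 CPM) and the placental prolactin Prl7a1 (21.3, 165 and 569 CPM), both at 0 CPM in pHep, and neither was called by DESeq2 (adjusted p = 0.192 and 0.129). The prolactin family has close copies, so single members are uncertain.

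**Figure D4:**
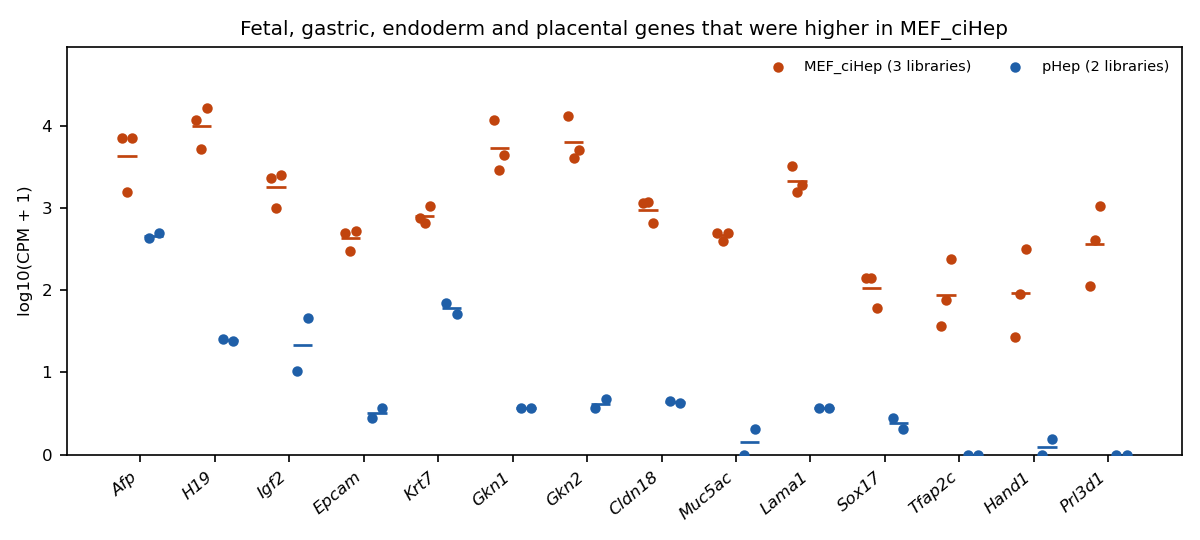
Levels of 14 genes of fetal liver, epithelium, stomach, extraembryonic endoderm and placenta in each library, as log10(CPM + 1); dots are libraries and bars are group means. The genes drawn were picked among those called higher. All 3 MEF_ciHep libraries lie above both pHep libraries in each, as they did for 27.4% of all genes tested. Tfap2c, Hand1 and Prl3d1 are the genes with the widest spread among MEF_ciHep libraries.

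Pluripotency genes were sparse. Of 20 tested, 7 were higher and 0 lower, and 4 were higher without pHep 1. Klf4, which is also an epithelial factor, rose 11.1-fold (385, 323 and 273 against 23.9 and 36.3 CPM), and Lin28a was at 24.7, 14.8 and 13.2 against 0 CPM. Pou5f1, the core pluripotency factor, was at 0.484, 1.21 and 0.366 against 0.442 and 0 CPM and was not called (adjusted p = 0.625). Of 21 squamous epidermal genes, 6 were higher and 4 lower. Sprr1a, a cornified envelope protein, was at 92.9, 126 and 103 CPM in MEF_ciHep and at 6787 and 3279 CPM in pHep (-5.52 ± 0.54, adjusted p = 3.63e-06), whereas its relative Sprr2a2 rose 59.1-fold. Sprr2a genes are near-identical copies, so Sprr2a2 is uncertain.

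Of the matrix and mesenchymal genes some were lower in MEF_ciHep, and the direction of the lists as a whole turned on pHep 2. Fn1, fibronectin, which hepatocytes secrete as well, was at 2293, 1388 and 2113 against 13366 and 21831 CPM (-3.16 ± 0.29, adjusted p = 8.72e-07). Lox, the collagen crosslinking enzyme, was at 0.484, 2.42 and 0.732 against 271 and 259.7 CPM (-7.39 ± 0.91, adjusted p = 1.42e-05), and the matrix protein Fbln2 fell 64.9-fold. Vim, vimentin, was at 132, 154 and 42.1 against 739.6 and 1328 CPM (-3.20 ± 0.42, adjusted p = 2.24e-05). Of 10 factors of the epithelial to mesenchymal transition, 5 were lower and 1 higher, and 3 were lower without pHep 2, MEF_ciHep 2 or MEF_ciHep 3. The median of this list was -2.19, and -0.36 without pHep 2. Zeb1, a repressor of epithelial genes, fell 35.7-fold, and Snai2 fell 14.3-fold, while Snai1 rose 19.8-fold.

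The count of matrix genes depended on pHep 2. Of 39 fibroblast matrix genes tested, 17 were lower and 4 higher (median -1.85), and without pHep 2 7 were lower and 5 higher, with a median of 1.03. Col1a1, the main fibrillar collagen chain, was at 7.52 CPM in pHep 1 and 152 CPM in pHep 2, against 1.45, 7.42 and 3.66 CPM in MEF_ciHep. Its log2 difference was -4.02, and -0.63 without pHep 2. The call was lost by limma on log2(TPM + 1) (adjusted p = 0.145) and by edgeR with ciEPC libraries as separate samples (adjusted p = 0.0875). It was also lost in an edgeR fit of MEF ciEPC, both ciHep groups and pHep only (adjusted p = 0.0586). The summed TPM of 5 fibroblast markers was 5.02 in pHep 1, 173 in pHep 2 and 32.1 to 53 in MEF_ciHep, and that of 4 stellate cell markers was 4.73, 72.2 and 2.46 to 8.24. The part of such cells in these results was not tested.

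Markers of immune cells differed in the same uneven way. Of 12 macrophage genes tested 10 were lower and 1 higher, but without pHep 2 only 3 were lower. Clec4f, C1qa and Vsig4, markers of Kupffer cells and other macrophages, were at 0 in every MEF_ciHep library. The summed TPM of 6 macrophage markers was 36.2 to 108 there and 105 in each pHep library, but few genes made up these sums. In MEF_ciHep they were nearly all Csf1r (52.1, 24.4 and 75.4 TPM) and Cd68 (13.6, 11.8 and 30.4 TPM). Cd68 alone was at 105 TPM in pHep 1 and at 62.3 TPM in pHep 2. Cd68, a lysosomal marker, fell 5.29-fold. Csf1r, the receptor for colony-stimulating factor 1 that macrophages and trophoblast carry, was the gene that rose, at 133, 60.4 and 182 against 2.21 and 23.3 CPM (3.35 ± 0.66, adjusted p = 0.00104, and 5.77 on the log2 scale without pHep 2). Of 18 genes of liver endothelium, 5 were higher and 6 lower. The sinusoidal receptor Stab2 fell 22.3-fold, while Vwf and Tek rose 68.3-fold and 44.8-fold, and Clec4g of sinusoidal cells was at 0 in all 5 libraries. A list of 14 lymphocyte genes summed to 3.6, 2.69 and 23.1 TPM in MEF_ciHep and to 2.17 and 5.57 TPM in pHep. The part of these cell types in other results was not tested.

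Genes of cell division depended on which pHep library was used. Of 36 cell cycle genes, 11 were lower and 1 higher, without pHep 1 1 was lower and 5 were higher, and without pHep 2 23 were lower. Without MEF_ciHep 1 or MEF_ciHep 2 the lower count was 6 or 7. Foxm1, which drives mitotic genes, was at 8.71, 11.9 and 13.2 CPM in MEF_ciHep and at 59.3 and 14.6 CPM in pHep, and it was not called without pHep 1 (adjusted p = 0.575), in a fit of these 2 groups alone (adjusted p = 0.0624) or by limma (adjusted p = 0.0753). Ccnd2, the cyclin that rose, was at 422, 926 and 469.8 against 9.73 and 90.6 CPM (3.66 ± 0.66, adjusted p = 4.50e-04, and 5.96 on the log2 scale without pHep 2). General glycolysis genes, with 4 higher and 2 lower of 18, were near the shares of all genes tested (15.5% higher and 11.2% lower). Their median of 0.01 also depended on the pHep library, at 0.57 without pHep 1 and -0.29 without pHep 2. Interferon response genes were higher for 6 of 23 members and lower for 1, and 10 were higher and 0 lower without pHep 2. Of 13 class I antigen presentation genes 5 were lower and 0 higher, among them B2m (2.65-fold) and H2-D1 (2.15-fold, a member of a family of close copies).

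Set beside the other groups, Alb and Hnf4a in MEF_ciHep lay between their levels in the starting cells and in pHep. Alb was at 0.294 ± 0.509 CPM in MEF (SD, n = 3) and at 0 to 3.35 CPM with a median of 0.501 CPM in 9 ciEPC libraries, before the levels of 1241 to 2739.6 CPM in MEF_ciHep. Hnf4a was at 0 CPM in MEF, at 17.1 to 74.3 CPM in ciEPC, and at 129.6 to 187 CPM in MEF_ciHep. Lama1 peaked in ciEPC, at 3492 to 12344 CPM, and Gkn2 was already detected there at 44.6 to 249 CPM but at 0 in MEF. The summed levels of plasma carrier proteins overlapped between MEF (15.1 to 25.3 TPM) and ciEPC (15.6 to 96.5 TPM) and were far above both in the later groups, at 17024, 8135 and 17313 TPM in MEF_ciHep and 45296 and 56489.9 TPM in pHep. For ciHep made from neonatal fibroblasts, which share the pHep controls, Alb was at 0 and 0.59 CPM, Afp at 0.95 and 7.08 CPM, Hnf4a at 3.48 and 13 CPM and Gkn2 at 1.58 and 11.2 CPM.

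**Figure D5:**
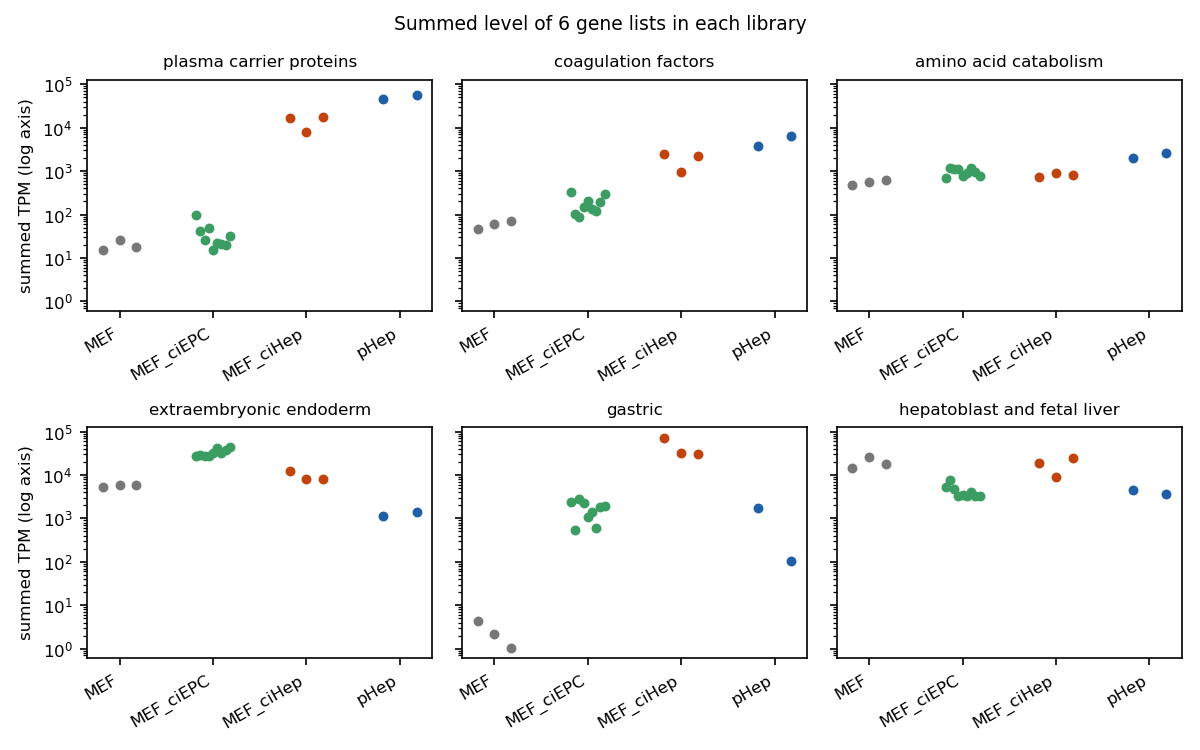
Summed TPM of 6 gene lists on a log axis in MEF (3 libraries), ciEPC from MEF (9 libraries, of 2 numbered series), MEF_ciHep (3) and pHep (2); dots are libraries. Plasma carrier proteins lie at 8135 to 17313 TPM in MEF_ciHep, below pHep and above the starting cells, gastric genes are highest in MEF_ciHep, and extraembryonic endoderm genes are highest in ciEPC.

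Among the 15 largest falls by fitted log2 fold change, of called genes with a mean of at least 32 CPM in the higher group, were Lmcd1, a LIM-domain cofactor (0 CPM in MEF_ciHep against 57.1 and 120.4 CPM, at least 313-fold), Palmd (406-fold) and the lipid transporter Abca6 (0, 0.518 and 0 against 156 and 162 CPM). Also among them, Pon1, the plasma paraoxonase, and Lect2, a hepatocyte-secreted chemotactic protein, were at 0 CPM in MEF_ciHep. Their levels in pHep were uneven, at 60.2 and 7.05 CPM for Pon1 and 63.3 and 19 CPM for Lect2. Against the pHep means they were at least 119-fold and 145-fold lower. Inhba, a subunit of activin, was at 0, 0.173 and 0 against 31.4 and 55.8 CPM. Among the largest rises were Degs2, a sphingolipid hydroxylase of gut and skin (203, 231 and 128 against 0 CPM), the choline transporter relative Slc44a4 (137, 155 and 143 against 0 CPM) and Upk1b, a uroplakin of the bladder lining (145, 137 and 70.3 against 0 CPM).

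The share of all TPM held by the 10 most abundant genes was 15%, 10.1% and 10.3% in MEF_ciHep and 13.4% and 10.5% in pHep. The groups overlapped, with means of 11.8% ± 2.75 (SD, n = 3) and 12% ± 2.08 (SD, n = 2), and a two-sided exact permutation test gave p = 0.8, where 0.1 is the smallest p that 3 against 2 libraries allow. The difference of -0.188 percentage points changed sign without MEF_ciHep 2 (0.671), MEF_ciHep 3 (0.538) or pHep 1 (1.28). In MEF_ciHep these genes were led by Gkn2, Apoa1 and Tff1, and in pHep by Clu, Trf and Alb. Clu, the secreted chaperone clusterin, was at 8552, 11790.5 and 6934 against 31064 and 24196 CPM. Its log2 difference was -1.57 (adjusted p = 0.0467 by edgeR), -1.35 without pHep 1 and -1.78 without pHep 2. The adjusted p rose to 0.105 without MEF_ciHep 1, 0.128 without MEF_ciHep 3 and 0.21 with the ciEPC libraries as separate samples. DESeq2 gave 0.0869, limma 0.0831 and the replicate block 0.0981.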

How the data were processed

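Trizol-extracted total RNA was sequenced from Illumina TruSeq libraries, per the labels' protocols. The authors deposited RSEM 1.2.4 output on build mm10, per the submitters' processing notes: expected counts per gene in a table of the whole series, and TPM values per library. The aligner and annotation are not given in the sources used here.

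Expected counts were rounded and fitted with edgeR 4.0.16 (R 4.3.3; quasi-likelihood test, TMM-scaled, genes kept by filterByExpr at min.count 10) over 20 samples of 9 groups, which share the estimate of spread. The ciEPC libraries of a numbered series were summed to 1 sample, and the library titled as passage 22 of the second ciEPC series was left out because an earlier account of these data gives it a profile against its label. p-values were adjusted by Benjamini-Hochberg over all 16056 genes tested. Where list members are near 0 in one group, they can pass the filter through the group where they are high. The direction of such list counts is then partly set by the filter. CPM values are TMM-scaled. A group at 0 was set to 3 counts over the group (0.283 CPM in MEF_ciHep, 0.731 CPM in pHep) for a bound, and groups of 1 to 3 counts got an exact 95% interval. Intervals and bounds cover counting error only. Levels of different genes were compared by deposited TPM. The code was tested on simulated data.

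Genes were named by a rule: the 15 largest falls and rises among called genes of at least 32 CPM with libraries that do not overlap; in each list up to 6 members of smallest adjusted p and up to 4 uncalled members of highest CPM; a fixed set of hepatocyte and lineage genes and gene pairs; the 10 most abundant genes of each group; and the 6 called genes most variable among MEF_ciHep libraries. The members and the 56 gene lists were chosen with earlier results of these data known. Replicate numbers did not pair the libraries. Alternatives were DESeq2 1.42.0, limma 3.58.1 on log2(TPM + 1), other scalings, filters and sample sets, a replicate block, and leaving out each library. List counts without each library were added after seeing the data. A few genes are not reported here.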

Additional observations from a re-analysis of the deposited data

How the results depend on the processing

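Over the alternatives that kept the 2-fold minimum, 1858 to 2630 genes were higher and 1244 to 1819 were lower in MEF_ciHep than in pHep. The lowest counts came from the fit of these 2 groups alone. Without a fold minimum 2786 genes were lower. Leaving out each library gave 2025 to 2367 higher and 1591 to 1819 lower genes. With the replicate block 2314 genes were higher and 1633 lower. The libraries share only a number: same-numbered MEF_ciHep and pHep libraries deviated together with a correlation of 0.015 for number 1 and 0.0423 for number 2. Of the 154 called genes named, 137 were called under every setting that could be fitted, and 145 when each library was left out. Cebpa, which was not called, was called without pHep 1 (log2 difference -1.69) and turned to 0.27 without pHep 2. The difference in the TPM share of the 10 most abundant genes ranged from -1.77 to 1.28 when each library was left out, turning positive without MEF_ciHep 2 (0.671), without MEF_ciHep 3 (0.538) and without pHep 1 (1.28), and was -2.62 for 50 genes and -4.82 with counts. The cause of these changes was not tested. At 2010637 to 6133147 counts per library, genes below about 1 CPM rest on few reads.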
